A study of Mus musculus with 9 samples.

Results

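The mouse genes of the Lin28 and let-7 axis were followed in the tissue that forms the upper lip and primary palate. The set holds 10 genes (Lin28a, Lin28b, Trim71, Igdcc3, Sall4, Arid3b, Hmga2, Igf2bp1, Igf2bp2 and Igf2bp3) of the 54532 genes in the deposited table, 30199 of which had at least 1 count. They were picked by symbol, with the fall of most of them over these stages already known from the same counts, so their own values are given as a description without a p-value. RNA was sequenced from the lambdoidal junction, the place where both nasal prominences join the maxillary prominence, of C57BL/6J embryos at 3 stages, E10.5, E11.5 and E12.5 (E, embryonic day). There were 3 libraries at each stage (9 in all), each from a pool of embryos, and the sex of the embryos is not given in the sources used here. No transgene, deletion or treatment is named for any stage.

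LIN28A and LIN28B are RNA-binding proteins of early embryonic and stem cells that bind let-7 precursors and block their maturation, in part by recruiting the uridylyl transferases TUT4 and TUT7. Mature let-7 in turn pairs with sites in the 3′ untranslated regions (3′ UTRs) of Lin28a, Lin28b and many growth genes and lowers their output, so that the proteins and the microRNA oppose each other. The same pair was found in the worm Caenorhabditis elegans as part of the heterochronic pathway, which times cell fates during larval life and also holds lin-41, the counterpart of Trim71, and lin-4, the counterpart of miR-125.

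The sequences on which this axis turns are shown first, because the libraries, made from total RNA with an Illumina TruSeq RNA kit, did not measure mature microRNAs. In the RefSeq table for GRCm38.p6, 11 mature microRNA names share bases 2 to 8 with let-7a. Of these, 4 are shown, followed by miR-125b, with that seed in capitals. The sequences of let-7a, let-7c, let-7i and miR-98 differ from each other only after the seed, whereas the seed of miR-125b is another sequence.
mmu-let-7a-5p: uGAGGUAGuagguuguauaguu
mmu-let-7c-5p: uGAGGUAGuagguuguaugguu
mmu-let-7i-5p: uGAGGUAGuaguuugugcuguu
mmu-miR-98-5p: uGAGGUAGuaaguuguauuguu
mmu-miR-125b-5p: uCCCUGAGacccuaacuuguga

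The element that LIN28 proteins recognise in let-7 precursors includes the letters GGAG in the part of the hairpin between the mature arms. GGAG was found between the arms in 9 of 12 let-7 and miR-98 hairpins, and the same 9 were the ones that held it anywhere. For comparison, 447 of all 1005 mouse hairpins in the table (44.5%) held GGAG at any position, on the RNA strand alone. Mirlet7i and Mirlet7c-1 hold the element, shown in capitals, and lie within transcripts that were measured here, and Mirlet7b is shown as a hairpin without it.
Mirlet7i, chr10:122985640-122985724, minus strand: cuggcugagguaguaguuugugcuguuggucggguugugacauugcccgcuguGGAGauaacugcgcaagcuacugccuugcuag
Mirlet7c-1, chr16:77599657-77599750, plus strand: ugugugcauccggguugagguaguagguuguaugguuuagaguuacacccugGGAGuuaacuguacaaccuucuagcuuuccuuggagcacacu
Mirlet7b, chr15:85707319-85707403, plus strand: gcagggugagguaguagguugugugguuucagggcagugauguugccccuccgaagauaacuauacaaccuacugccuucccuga

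The 7-base match to the let-7 seed in a messenger RNA is CTACCTC, which was searched on the transcript strand alone. It was found in the 3′ UTR of the longest annotated transcript (GENCODE vM21, GRCm38) of all 10 genes. The matches shown are those nearest to the stop codon among the matches followed by A, or among all matches where none was followed by A, as 30 bases of each 3′ UTR with the match in capitals.
Lin28a, chr4:134005188-134005217, minus strand: tggagtgcacagcctgttgaaCTACCTCat
Lin28b, chr10:45381021-45381050, minus strand: cccttcacccgggcgggaagtCTACCTCat
Trim71, chr9:114512471-114512500, minus strand: aagtacaacattgcctaagtcCTACCTCag
Igdcc3, chr9:65185701-65185730, plus strand: agctgttgtgactctcagcacCTACCTCag
Sall4, chr2:168748939-168748968, minus strand: gatgtgagggctttaatttatCTACCTCaa
Arid3b, chr9:57790360-57790389, minus strand: tgtttatatttcaataaagctCTACCTCtt
Hmga2, chr10:120364223-120364252, minus strand: gggggcgccgacattcaatttCTACCTCag
Igf2bp1, chr11:95961777-95961806, minus strand: ggcagtgctgtgcgaagtaaaCTACCTCaa
Igf2bp2, chr16:22059472-22059501, minus strand: agaaaaacacacaaataaaagCTACCTCag
Igf2bp3, chr6:49086786-49086815, minus strand: taaacgtgcatttttactcaaCTACCTCag

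Trim71, Lin28b, Hmga2 and Igf2bp1 held 4 such matches each, Lin28a and Igdcc3 held 2, and Sall4, Arid3b, Igf2bp2 and Igf2bp3 held 1. The match in Arid3b, at position 2148 of a 3′ UTR of 2160 bases, lies at the end of the transcript and is not followed by A. Igdcc3 has the shortest 3′ UTR of the 10 genes (538 bases) and Igf2bp1 the longest (6337 bases). Among 13385 protein-coding genes tested in every comparison, 1410 (10.5%) held at least 1 match, 176 (1.31%) held at least 2 and 26 (0.194%) held at least 3. Of the 10 genes, 10, 6 and 4 did so. The set carries the name of let-7, so this is a description of its sequence and not a finding from the counts. The match to the miR-125 seed, CTCAGGG, was found in 5 of the 10 genes (Lin28a, Lin28b, Trim71, Arid3b and Igf2bp3), against 15.9% of the 13385 genes. The miR-125 matches of Lin28a and Trim71 are shown because they lie shortly before the first let-7 match of the same 3′ UTR, at positions 797 and 909 in Lin28a and at positions 79 and 166 in Trim71.
Lin28a, chr4:134005300-134005329, minus strand: gttctcaggtacatgagcaatCTCAGGGat
Trim71, chr9:114512558-114512587, minus strand: gaatttcaaagaagaaatcgtCTCAGGGat

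The total count per library was 16581009–20836804. Expression levels are CPM, each count set against a TMM-scaled library size over the 9 libraries, and fold changes are log2 values of the later over the earlier stage with their standard errors, from edgeR fits on the 6 libraries of each pair. E11.5 vs. E10.5 is the first interval, E12.5 vs. E11.5 the second, and E12.5 vs. E10.5 the whole span. E10.5 replicate 3 stood apart from the other E10.5 libraries, with a chi-square per degree of freedom of 63.4 and 68.3 against them, where those 2 differed by 6.78. Every pair of replicates, 9 in all, exceeded counting noise (4.42–68.3). Over 14360 genes, the log2 ratio of that library to the mean of the other E10.5 libraries was lower at higher GC content of the gene (Spearman's rho = −0.600, a description over genes that are not independent of each other). The labelled tissue was checked against marker genes, and each of 11 facial mesenchyme and 8 surface epithelium markers was above 3 counts in at least 1 library of every stage.

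Lin28a, the RNA-binding protein that blocks let-7 maturation in the cytoplasm, showed the largest difference of the 10 genes. It lies on chr4:134003330-134018841 (minus strand, GRCm38, as are the positions of the other genes). The 3 libraries of E10.5 gave 58.6, 74.0 and 109.5 CPM, those of E11.5 gave 3.17, 6.16 and 3.21 CPM, and those of E12.5 gave 0.451, 0.863 and 0.298 CPM. No library of a later stage reached the lowest of an earlier one. The log2 fold change was −4.26 ± 0.34 from E10.5 to E11.5, −2.94 ± 0.42 from E11.5 to E12.5 and −7.19 ± 0.39 over the whole span, a 150.2-fold difference of the mean CPM. At E12.5 the level rested on 5–16 counts per library, so that its value there is the least precise of the set.

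Lin28b (chr10:45376620-45486395), its paralog, which can hold let-7 primary transcripts in the nucleus, was higher than Lin28a in CPM in every library. It gave 124, 144 and 209 CPM at E10.5, 27.3, 39.8 and 30.1 CPM at E11.5 and 5.63, 7.06 and 5.43 CPM at E12.5. The 3 stages did not overlap, and the log2 fold changes of the consecutive intervals were alike in size, −2.29 ± 0.23 and −2.43 ± 0.19. Per transcript length (deposited FPKM), the ratio of Lin28a to Lin28b was 1.07, 1.17 and 1.19 at E10.5, 0.264, 0.351 and 0.242 at E11.5 and 0.181, 0.277 and 0.125 at E12.5. Both paralogs were thus at a similar level per length at E10.5, and Lin28b was above Lin28a in every later library.

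Trim71 (chr9:114507133-114564369), the LIN-41 counterpart, a ubiquitin ligase and mRNA repressor of early embryos, gave 97.2, 125.05 and 94.9 CPM at E10.5. It gave 22.3, 29.8 and 22.2 CPM at E11.5, and 3.21, 6.42 and 5.01 CPM at E12.5. Each stage lay below the one before in every library. The log2 fold change was −2.09 ± 0.17 in the first interval and −2.35 ± 0.24 in the second, close to the values of Lin28b.

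Igdcc3 (chr9:65141189-65185872), an immunoglobulin superfamily membrane protein related to the DCC receptor family, had a wide spread at E10.5. Its libraries gave 367, 548 and 306 CPM at E10.5, 27.1, 46.7 and 28.02 CPM at E11.5 and 5.69, 8.20 and 3.76 CPM at E12.5. The highest E11.5 library lay far below the lowest E10.5 library, and the stages did not overlap. The log2 fold change was −3.58 ± 0.30, then −2.53 ± 0.29, and −6.10 ± 0.35 over the whole span (69.2-fold of the mean CPM).

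Sall4 (chr2:168748332-168767943), a zinc finger transcription factor of pluripotent cells and early embryos, gave 73.0, 91.0 and 63.6 CPM at E10.5, 25.2, 37.1 and 31.2 CPM at E11.5 and 9.24, 9.11 and 9.42 CPM at E12.5. The E12.5 libraries were nearly equal, and none of the stages overlapped. Its log2 fold change was −1.28 ± 0.18 in the first interval and −1.76 ± 0.17 in the second. Arid3b (chr9:57790353-57836793), an AT-rich interaction domain DNA-binding protein, gave 88.0, 101 and 110.2 CPM, then 40.8, 45.9 and 42.1 CPM, then 19.8, 19.4 and 14.7 CPM. Its steps were of nearly equal size, −1.21 ± 0.12 and −1.26 ± 0.15, again with no overlap of the libraries.

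Hmga2 (chr10:120361275-120476469), an architectural chromatin protein and a well known let-7 target, differed least of the 10 genes in the first interval and over the whole span. It was the most highly expressed of the 10 genes in CPM at every stage, with 647, 668 and 797 CPM at E10.5, 733, 731 and 689 CPM at E11.5 and 445, 612 and 531 CPM at E12.5. The libraries of E10.5 and E11.5 overlapped, and the log2 fold change between them was 0.03 ± 0.11. Its E12.5 libraries all lay below those of both earlier stages, at −0.44 ± 0.14 against E11.5, and the change did not reach the fold-change threshold in any comparison.

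The IGF2BP proteins bind mRNAs, among them that of Igf2, and their genes differed in the size of the change. Igf2bp1 (chr11:95957163-96005940) gave 542, 608 and 545 CPM at E10.5, 371, 419 and 383 CPM at E11.5 and 197, 229.6 and 172 CPM at E12.5. Its libraries did not overlap between stages, and the log2 fold change was −0.53 ± 0.10 and then −0.97 ± 0.14. Igf2bp3 (chr6:49085223-49214957) was similar in proportion, with 200.4, 197 and 208 CPM, then 144, 158 and 141 CPM, then 63.1, 94.6 and 49.1 CPM (−0.45 ± 0.10 and −1.11 ± 0.20). Igf2bp3 shares 18.7% of its exon bases with Malsu1 on the other strand, and whether the counting used strand is not stated, so part of its reads may belong to Malsu1. Igf2bp2 (chr16:22059009-22163299) differed least of the 3, from 336, 362 and 386 CPM to 325, 328 and 311 CPM and to 261, 261 and 197 CPM, a log2 fold change of −0.17 ± 0.10 and then −0.43 ± 0.14. Its libraries did not overlap between stages either, although the gap between E10.5 and E11.5 was narrow.

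**Figure D1:**
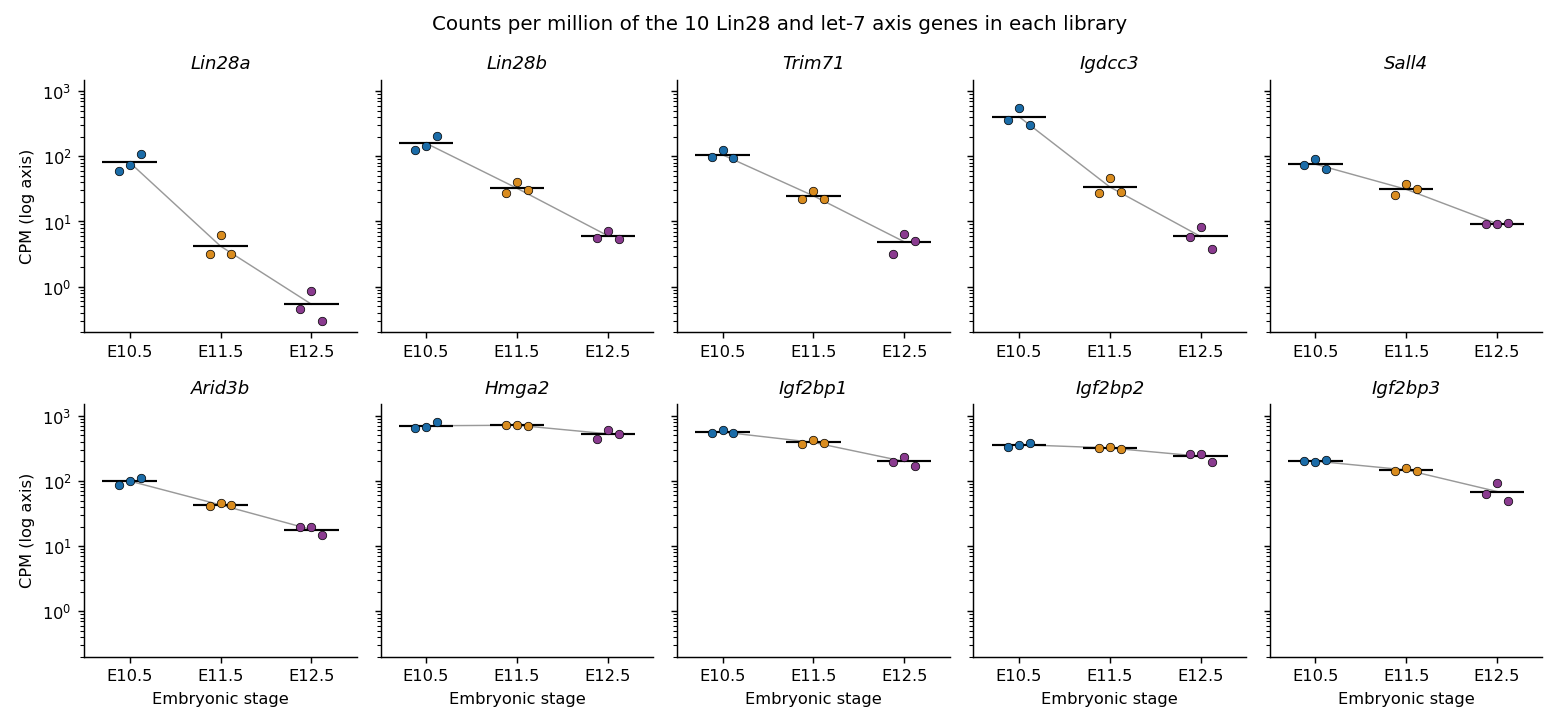
Level in CPM (log axis) of the 10 genes against embryonic stage, with 1 point per library, 3 libraries per stage and a horizontal bar at each stage's mean. Lin28a drops from a mean of 80.7 CPM at E10.5 to 0.537 CPM at E12.5, whereas Hmga2 lies between 445 and 797 CPM in all 9 libraries.

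A gene is called here, up or down, where its adjusted p did not exceed 0.05 and its log2 fold change was 1 or more in size, the DEG thresholds of the study. Of the 10 genes, 6 were called down in E11.5 vs. E10.5 (Lin28a, Lin28b, Trim71, Igdcc3, Sall4 and Arid3b), where 2.61% of 15708 genes tested were. In E12.5 vs. E11.5 the count was 7, with Igf2bp3 added, against 0.962% of 15808 genes. In E12.5 vs. E10.5 it was 8, with Igf2bp1 added, against 5.08% of 15899 genes. None was called up by edgeR or by DESeq2, and at an unadjusted p under 0.05 none was higher. All 10 passed the filter on low counts in every comparison. The later libraries all lay below the earlier ones for 9 genes in the first interval (18.3% of all genes tested) and for all 10 in the second (16.8%) and over the whole span (20.4%). The median log2 fold change of the 10 genes was −1.25, −1.51 and −2.75, beside −0.03, 0.02 and −0.01 for all genes tested. Because the genes were picked with their fall known, nothing is read from these counts.

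In E12.5 vs. E11.5, 2 calls sat at the threshold. Igf2bp3 was no longer called without E12.5 replicate 1 (log2 −1.04) or without E12.5 replicate 3 (−0.92), and Igf2bp1 was called without replicate 1 (−1.02) or 3 (−1.01) of E11.5, or replicate 2 of E12.5 (−1.09). Leaving out any other library changed no call of the 10 genes in this comparison, and no single library changed one in the other comparisons.

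Markers of other cell types moved over the same stages. In bulk tissue, fewer cells of a type and less RNA per cell cannot be told apart. Of 11 markers of neuroepithelium, forebrain and eye, 10 were called down in E11.5 vs. E10.5. In E12.5 vs. E11.5, where 8 of them could be tested, edgeR and DESeq2 called none, and 4 were lower at an unadjusted p under 0.05. Their summed level was 582–756, 204–256 and 185–220.1 CPM over the stages in order, and at E11.5 Otp and Rax, 2 of the 11, were at or under 3 counts in every library. Sox1, which marks neuroepithelium, gave 50.9, 37.7 and 57.7 CPM at E10.5 and at most 1.92 CPM in any later library. Facial mesenchyme markers summed to 1300–2059, 2810–3018 and 2855–3223 CPM, and surface epithelium markers to 521–935, 480.2–515 and 474–521 CPM. Neuron markers summed to 174–209, 192–213 and 276–310.4 CPM, red blood cell markers to 3466–4668, 5283–5621 and 4489–5878 CPM and endothelial markers to 112–287, 271–286 and 231–291 CPM. Single markers of a list moved in opposite directions. Over the whole span, 1 of 6 neuron markers was called up (Stmn2, log2 2.61) and 1 down (Isl1, −1.26). Calls were 4 up and 2 down for red blood cells and 4 up and 1 down for facial mesenchyme, beside 9.97% and 5.08% of all genes tested. Macrophage markers were at most 29.3 CPM and muscle markers at most 6.56 CPM in sum. The part of these markers in the values of the 10 genes was not tested. Between E11.5 and E12.5, where the ranges of the neuroepithelial sum overlapped, 7 of the 10 genes were past the thresholds, among them Lin28a at −2.94 and Igdcc3 at −2.53.

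**Figure D2:**
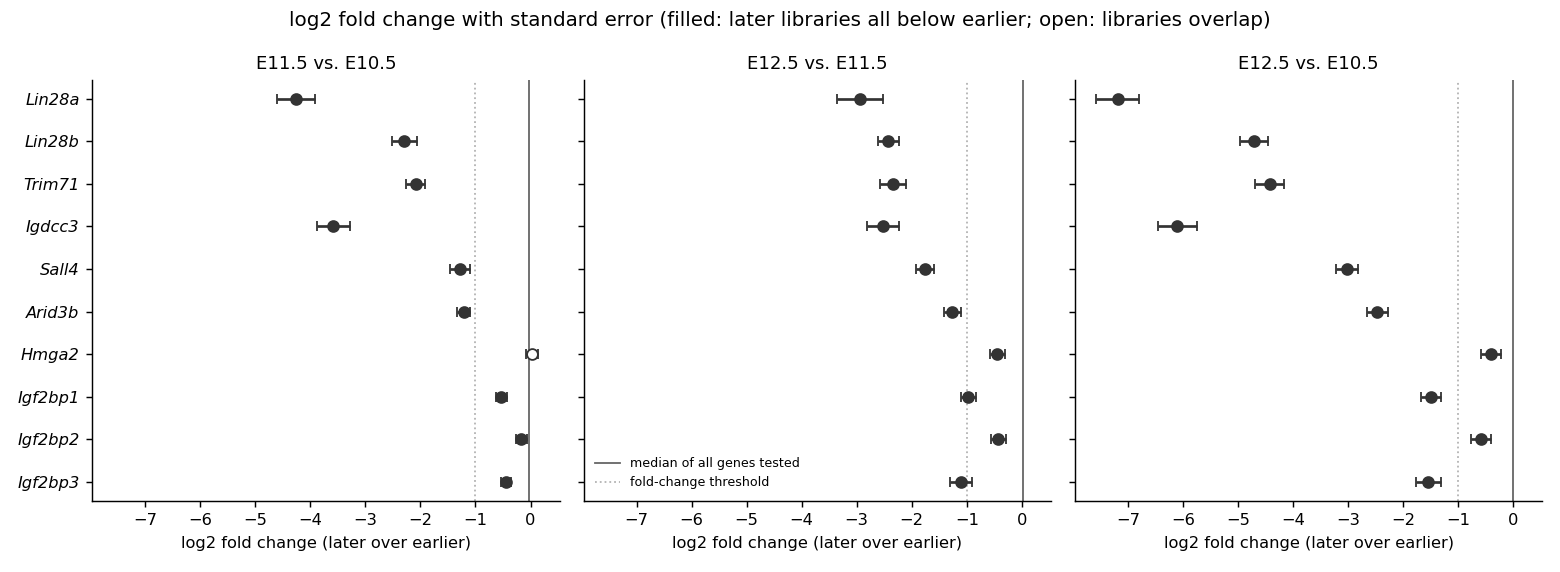
log2 fold change of the 10 genes (horizontal axis, later over earlier stage) in each comparison of stages, with the standard error as bars. Filled points have later libraries that all lie below the earlier ones, the open point of Hmga2 in E11.5 vs. E10.5 marks overlap, the solid line is the median of all genes tested and the dotted line the fold-change threshold.

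The genes differed in how their change was split between the intervals. Lin28a and Igdcc3 showed 59.2% and 58.6% of their summed log2 difference in the first interval, Arid3b, Lin28b and Trim71 showed 49.0%, 48.6% and 47.1%, and Sall4 showed 42.1%. For the IGF2BP genes the share was lower, 35.2% for Igf2bp1, 28.7% for Igf2bp3 and 27.9% for Igf2bp2. Hmga2 has no such share, since its mean was slightly higher at E11.5 than at E10.5. These shares follow from fits with the E11.5 libraries in both intervals, so an error in E11.5 moves the intervals in opposite directions.

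Levels of different genes were compared per transcript length, by the deposited FPKM. At E10.5 the order was Igdcc3 (112 ± 35.0 FPKM, SD, n = 3), Hmga2 (103 ± 12.2), Igf2bp1 (57.8 ± 4.09), Igf2bp2 (48.3 ± 3.57), Igf2bp3 (24.5 ± 0.727), Lin28a (20.003 ± 6.54), Lin28b (17.4 ± 4.91), Sall4 (13.6 ± 2.53), Arid3b (12.4 ± 1.45) and Trim71 (11.2 ± 1.83). The libraries of Igdcc3 and Hmga2 overlapped, and so did those of each pair of neighbours from Igf2bp3 to Trim71. Both genes of a pair were measured in the same libraries, so such overlap does not show that their levels were equal. Within each E10.5 library Lin28a was above Lin28b (ratios of 1.07, 1.17 and 1.19). By E12.5 Hmga2 led with 77.0 ± 12.5 FPKM, ahead of Igf2bp2 (31.8 ± 4.76), Igf2bp1 (20.3 ± 2.93) and Igf2bp3 (8.32 ± 2.83), and none of these neighbours overlapped. Arid3b (2.21 ± 0.343), Sall4 (1.65 ± 0.0316) and Igdcc3 (1.61 ± 0.610) came next, of which Sall4 and Igdcc3 overlapped. Lin28b (0.656 ± 0.0986), Trim71 (0.515 ± 0.172) and Lin28a (0.132 ± 0.0724) were lowest, and the first 2 of these overlapped. Igdcc3 had moved from rank 1 to rank 7, and Lin28a from rank 6 to rank 10.

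Libraries of the same stage differed in how many of the 10 genes were high. E10.5 replicate 3 gave the highest CPM of its stage for 6 of them and the lowest for 3. E11.5 replicate 2 gave the highest CPM of its stage for 9 of them, and E12.5 replicate 2 for 7, while E12.5 replicate 3 gave the lowest for 7. Over the 9 libraries, Pearson's r between pairs of the genes was 0.644–0.995 (45 pairs), a description across stages that says nothing of the spread within one. At E10.5 the log2 ratio of replicate 3 to the mean of replicates 1 and 2 was 0.64 for Lin28b, which has the lowest GC content of the set (40.6%), and −0.58 for Igdcc3, which has the highest (60.1%). Lin28a went against this order, with a ratio of 0.72 at a GC content of 50.1%. Over the 10 genes Pearson's r between the ratio and GC content was −0.728, and the part of GC content in the values at E10.5 was not tested further. Without E10.5 replicate 3, the log2 fold change of E11.5 vs. E10.5 was −3.96 for Lin28a, −2.04 for Lin28b and −3.74 for Igdcc3. With the GC trend of each library removed it was −4.28, −2.26 and −3.49.

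The precursors themselves could not be followed in these libraries, since of 15 table rows for let-7, miR-98 and miR-125 precursors only 1 held a count. Transcripts that span a precursor on the same strand were used in their place, as a measure of the spanning transcript and not of the mature microRNA. Of 10 such transcripts, 8 had enough counts to be tested (edgeR, quasi-likelihood, Benjamini-Hochberg adjustment over all genes). In E11.5 vs. E10.5 edgeR called none, with 3 at an unadjusted p under 0.05, and DESeq2 called Spaca6 down, whereas 2 were called up in E12.5 vs. E11.5, and 3 up and 1 down in E12.5 vs. E10.5. Among all genes tested, 3.46% were called up in the first interval, 4.14% in the second and 9.97% up and 5.08% down over the whole span.

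The 3 spanning transcripts called up are long noncoding or pseudogene transcripts. D630033A02Rik, which spans let-7i on chromosome 10, gave 1.19, 1.28 and 0.681 CPM at E10.5, 1.61, 1.73 and 1.63 CPM at E11.5 and 4.17, 2.43 and 6.92 CPM at E12.5. Its stages did not overlap, and the log2 fold change was 2.10 ± 0.44 over the whole span (edgeR adjusted p = 0.00585) and 1.43 ± 0.36 in the second interval (edgeR adjusted p = 0.0261), on 11–116 counts per library. Mir99ahg, which spans let-7c-1 and miR-125b-2 on chromosome 16, gave 2.44, 1.92 and 2.42 CPM, then 3.23, 2.501 and 2.05 CPM, then 8.62, 4.04 and 4.53 CPM. It overlapped between E10.5 and E11.5 and was higher in every E12.5 library (log2 1.35 ± 0.35 over the whole span, edgeR adjusted p = 0.0164).

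The transcript 3110039I08Rik, which spans let-7a-2 and miR-125b-1 on chromosome 9, was far more abundant. It gave 86.9, 83.5 and 50.9 CPM at E10.5, 172, 122 and 129.5 CPM at E11.5 and 237, 154 and 122 CPM at E12.5. The first interval was under the fold-change threshold (log2 0.94 ± 0.22, edgeR adjusted p = 0.0311, and 1.07 and called without E10.5 replicate 1), and the whole span was called (1.22 ± 0.28, edgeR adjusted p = 0.00862). In contrast, Spaca6, which spans let-7e and miR-125a on chromosome 17, gave 38.0, 31.1 and 13.8 CPM, then 16.0, 13.7 and 11.5 CPM, then 11.2, 9.81 and 5.96 CPM. It was called down over the whole span (log2 −1.61 ± 0.36, edgeR adjusted p = 0.00822), and its E10.5 replicate 3 lay within the range of E11.5. Without that library Spaca6 was also called down in the first interval (log2 −1.33 against −1.01).

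The spanning transcripts not called include abundant protein-coding genes. Huwe1, a ubiquitin ligase gene that spans let-7f-2 and miR-98, averaged 664 ± 56.4, 598 ± 53.1 and 404 ± 159.7 CPM over the stages in order (SD, n = 3). Wdr82, which spans let-7g, averaged 238 ± 5.49, 276 ± 2.94 and 267 ± 19.4 CPM. The noncoding 6720427I07Rik, which spans let-7d, averaged 3.76 ± 1.53, 3.15 ± 0.424 and 4.62 ± 1.17 CPM, and Gm28119, a short transcript over miR-125b-1, 1.42 ± 0.948, 1.48 ± 1.18 and 0.740 ± 0.482 CPM. Lncppara, which spans let-7b and let-7c-2, and Gm49317 had at most 2 counts in any library. By the deposited coordinates, let-7a-1 and let-7f-1 had no spanning row. In GENCODE vM21, however, the exons of 6720427I07Rik overlap let-7a-1 and let-7f-1 as well as let-7d, on the same strand.

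The calls in the second interval depended on single libraries. D630033A02Rik was not called without any 1 of E11.5 replicates 1, 2 and 3 and E12.5 replicates 1 and 3 (log2 0.97 to 1.48), nor with the GC trend removed (0.81), where it was called in the first interval instead (1.11), and Mir99ahg not without any 1 of the E11.5 libraries or E12.5 replicate 1 (log2 0.72 to 1.31). Over the whole span, Mir99ahg (log2 0.93) and 3110039I08Rik (0.91) were not called without E12.5 replicate 1.

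**Figure D3:**
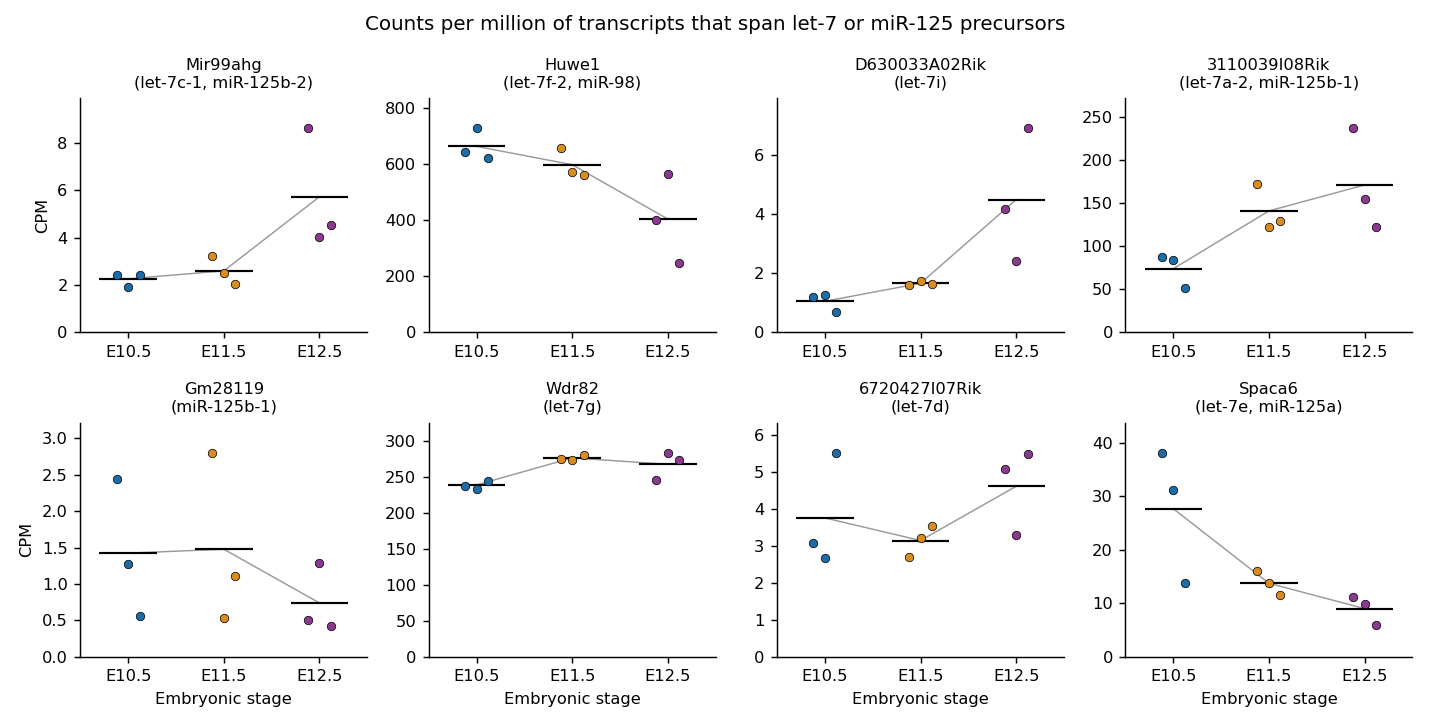
Level in CPM (linear axes from 0, a different range in each panel) of the 8 tested transcripts that span let-7 or miR-125 precursors against stage, with 1 point per library and a bar at each stage's mean. Mir99ahg, D630033A02Rik and 3110039I08Rik are higher in every E12.5 library than in any E10.5 library, and Spaca6 is lower.

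Around the 10 genes, 6 lists of related genes were counted in the same fits. Of 21 genes of microRNA processing, action and let-7 decay, only Ago4 and Ago2 were called in any comparison. Over the whole span 1 was called up (9.97% of all genes tested) and 1 down (5.08%). With the adjusted p alone, 6 were lower and 0 higher in the second interval. Of all 15808 genes tested there, 723 were lower and 1203 higher by that criterion. Over the whole span 5 were lower and 1 was higher by the adjusted p alone, where 1675 of all 15899 genes tested were lower. Ago4, an Argonaute, gave 5.65, 3.25 and 2.79 CPM at E10.5, 12.2, 9.38 and 10.4 CPM at E11.5 and 14.0, 15.5 and 9.42 CPM at E12.5. It rose in the first interval (log2 1.46 ± 0.28, edgeR adjusted p = 0.0151), a call that was lost without E10.5 replicate 2, E11.5 replicate 1 or E11.5 replicate 3, and over the whole span (1.74 ± 0.32, edgeR adjusted p = 0.00262). Ago2, the slicing Argonaute and much the more abundant, gave 343, 387 and 327 CPM, then 263, 249 and 231 CPM, then 118, 201 and 96.9 CPM, and fell over the whole span (log2 −1.34 ± 0.26, edgeR adjusted p = 0.00358). Without E12.5 replicate 2, Ago2 was also called in the second interval (log2 −1.22 against −0.84). The list's most abundant members that were not called were Hnrnpa1, an RNA-binding protein that binds the let-7a-1 precursor (log2 −0.22 ± 0.19 over the whole span), and Ddx5, a helicase of the Drosha complex (−0.04 ± 0.17). The median log2 fold change of the list over the whole span was −0.42, beside −0.01 for all genes.

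Of 19 known let-7 targets outside the 10 genes, 4 were called down over the whole span (5.08% of all genes tested) and 1 up (9.97%). With the adjusted p alone, 6 were lower and 2 were higher, where 1675 of all 15899 genes tested were lower. Nr6a1, a nuclear receptor of early embryos, gave 13.0, 18.1 and 22.7 CPM at E10.5, 5.97, 7.41 and 6.32 CPM at E11.5 and 3.44, 5.39 and 3.94 CPM at E12.5, with no overlap of stages (log2 −2.06 ± 0.28, edgeR adjusted p = 0.000436). It was the only target called down in the first interval (−1.44 ± 0.23, edgeR adjusted p = 0.00736), a call that was lost without E11.5 replicate 1. Hmga1, the paralog of Hmga2, averaged 783 ± 126, 454 ± 70.1 and 307 ± 28.9 CPM (SD, n = 3; log2 −1.34 ± 0.19 over the whole span, edgeR adjusted p = 0.000564). Mycn, a growth-promoting transcription factor, averaged 137 ± 16.1, 86.3 ± 8.22 and 60.0 ± 3.42 CPM (log2 −1.18 ± 0.17, edgeR adjusted p = 0.000599). Ccnd1, cyclin D1, averaged 328 ± 18.6, 222 ± 14.3 and 128 ± 30.01 CPM (log2 −1.35 ± 0.20, edgeR adjusted p = 0.000754), and 23.4% of its exon bases are shared with Oraov1 on the other strand. It was called in the second interval only without E12.5 replicate 2 (log2 −1.005 against −0.80).

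Fas, a death receptor, moved the other way from a low level, with 0–7 counts per library at E10.5. It averaged 0.638 ± 0.305 CPM at E11.5 and 1.87 ± 0.639 CPM at E12.5 and was called up in the second interval (log2 1.54 ± 0.43, edgeR adjusted p = 0.0390). This call was lost in the fit on all 9 libraries and in 4 of 6 fits without a library. The most abundant targets that were not called were Ccnd2, cyclin D2 (log2 −0.32 ± 0.23 over the whole span), and Tgfbr1, a TGF-beta receptor (−0.52 ± 0.22). The median of the list was −0.18 in the first interval, −0.29 in the second and −0.37 over the whole span, beside −0.03, 0.02 and −0.01 for all genes tested.

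Among 15 close relatives of the 10 genes, 5 were called down over the whole span (5.08% of all genes tested) and none up (9.97%). With the adjusted p alone, 6 were lower and 1 was higher, where 1675 of all 15899 genes tested were lower. Prtg (protogenin), a relative of Igdcc3, gave 61.3, 82.1 and 95.4 CPM at E10.5, 14.3, 15.8 and 14.5 CPM at E11.5 and 5.01, 6.79 and 6.80 CPM at E12.5, and was the only relative called down in both intervals (log2 −2.42 ± 0.18, edgeR adjusted p = 0.00100, and −1.26 ± 0.17, edgeR adjusted p = 0.00114). Igdcc4, another relative of Igdcc3, named after its values were seen, was the 1 that was higher, under the fold-change threshold (log2 0.79 ± 0.26 over the whole span, edgeR adjusted p = 0.0467), with means of 40.1, 51.0 and 69.1 CPM. Sall3, a paralog of Sall4, gave 5.47, 6.21 and 8.98 CPM at E10.5 and 0.269–0.721 CPM in the libraries of the later stages (log2 −3.83 ± 0.38 in the first interval, edgeR adjusted p = 0.00153). Sall1, another paralog, fell in the second interval, from 28.8, 25.1 and 26.7 CPM to 8.40, 13.4 and 9.60 CPM (log2 −1.36 ± 0.18, edgeR adjusted p = 0.000950). Arid3a, the paralog of Arid3b, fell in the first interval at the threshold (log2 −1.01 ± 0.11, edgeR adjusted p = 0.00225, and −0.94 without either E10.5 replicate 2 or replicate 1 of E11.5) and averaged 92.1, 45.7 and 27.1 CPM. Hmga1, also a relative here, is given above. Ybx1, a cold-shock domain relative of the LIN28 proteins, was the most abundant relative that was not called (log2 −0.40 ± 0.19 over the whole span). The median of this list was −0.22, −0.20 and −0.31 in the same order.

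Of 12 pluripotency and early embryo genes, 10 were too low to be tested, with at most 17 counts in any library, and among them Pou5f1 had at most 2 and Dppa4 and Tdgf1 had 0 counts in every library. For Dppa4 and Tdgf1 this allows up to 3 counts per library. Sox2, also a gene of neural and placodal epithelium, averaged 109 ± 19.5, 44.3 ± 4.998 and 49.3 ± 3.19 CPM and fell in the first interval (log2 −1.30 ± 0.15, edgeR adjusted p = 0.00270) and over the whole span (−1.14 ± 0.18, edgeR adjusted p = 0.00125, and −0.98 and not called without E10.5 replicate 3). Dnmt3b, a de novo DNA methyltransferase, averaged 69.9 ± 6.01, 37.3 ± 3.07 and 19.8 ± 1.58 CPM and fell over the whole span (log2 −1.81 ± 0.18, edgeR adjusted p = 4.15e-05). Thus 1 of the 2 tested genes was called down in the first interval (2.61% of all genes tested) and 2 over the whole span (5.08%). No mouse counterpart of other worm heterochronic genes was called by edgeR or DESeq2 in any comparison (0 of 7), and 1 of them had an unadjusted p under 0.05, in E12.5 vs. E10.5. The most abundant of these were Zfp362 (139 ± 32.5, 168 ± 6.77 and 170 ± 28.4 CPM) and Fbxo11 (113 ± 21.5, 139 ± 12.4 and 140 ± 13.8 CPM). Of 5 mRNAs known to be bound by IGF2BP proteins, Cd44, a hyaluronan receptor, rose in the second interval from 7.53, 5.72 and 7.22 CPM to 18.3, 19.03 and 19.1 CPM (log2 1.46 ± 0.16, edgeR adjusted p = 0.000296) and over the whole span (1.11 ± 0.25, edgeR adjusted p = 0.00888, and 0.93 and not called without E10.5 replicate 2). Cd44 was the only 1 of the 5 called, where 4.14% of all genes tested were called up in the second interval and 9.97% over the whole span. H19, a noncoding RNA, was higher in every E12.5 library without reaching the fold-change threshold. Its log2 fold change in the second interval was 0.60 ± 0.13 (edgeR adjusted p = 0.0144). Over the whole span it was 0.67 ± 0.17 (edgeR adjusted p = 0.0175). Actb, beta-actin, was not called, with log2 0.12 ± 0.14 in the second interval and 0.35 ± 0.19 over the whole span.

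**Figure D4:**
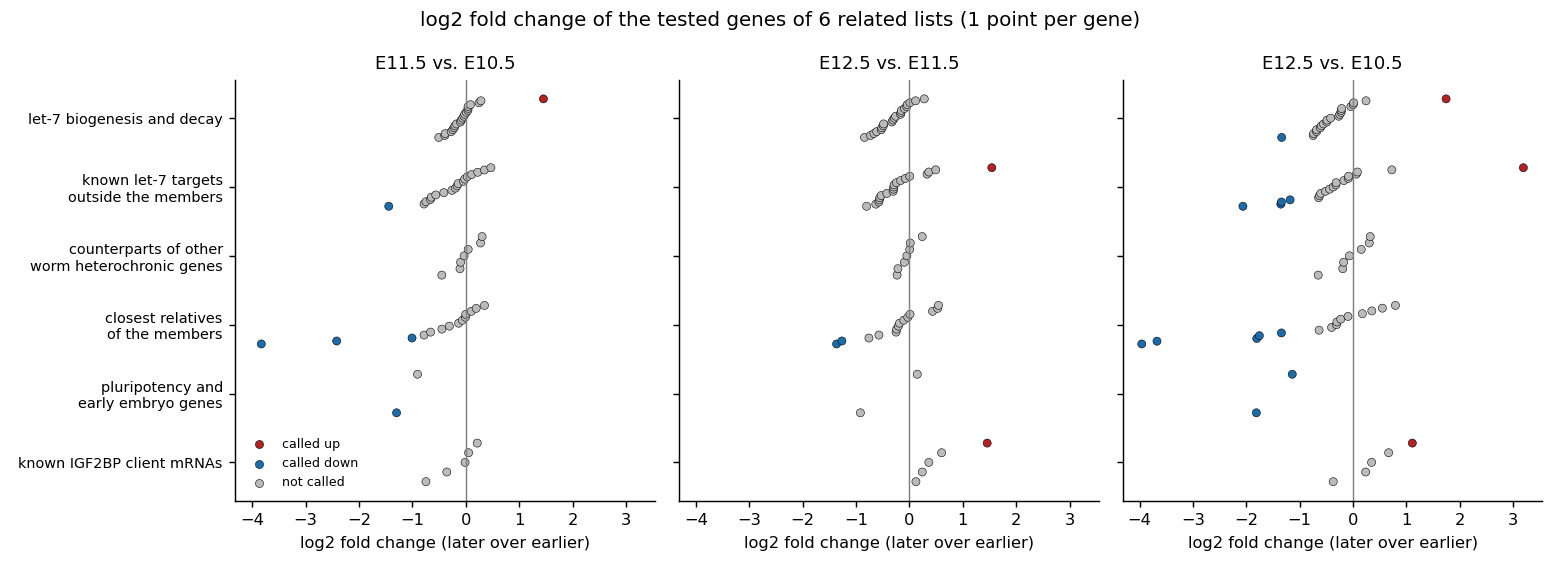
log2 fold change (horizontal axis, later over earlier stage) of the tested genes of 6 related lists in each comparison, with 1 point per gene and colours for genes called up, called down or not called. Most points of the microRNA processing list and all points of the worm counterparts list are not called, and the relatives list holds 5 genes called down in E12.5 vs. E10.5.

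Genes outside the set were ranked by how closely their log2 CPM followed the mean pattern of the 10 genes over the 9 libraries (Pearson's r among 16365 genes). The 8 nearest were Fign, Dna2, Fndc3c1, Cecr2, Chd7, Nsd2, Plekhh1 and Ccnd1, with r from 0.990 to 0.999, and 265 genes reached at least 0.95. Fign, a microtubule-severing ATPase, averaged 46.6 ± 4.84, 25.6 ± 2.51 and 9.87 ± 1.71 CPM. Chd7, a chromatin remodeler, averaged 232 ± 19.98, 129 ± 8.96 and 52.2 ± 13.7 CPM, and Nsd2, a histone methyltransferase, 447 ± 27.2, 348 ± 11.1 and 226 ± 34.6 CPM. By Spearman's correlation 31 genes, among them Fndc3c1, tied at a rho of 1, so that no 8 nearest genes could be picked by it. A list chosen as the most alike of many genes is a description of 9 libraries and carries no test.

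Matches to the let-7 seed were also compared with the fold changes of all protein-coding genes other than the 10. In E12.5 vs. E11.5, 48.1% of genes without a match, 58.8% of those with 1 and 66.5% of those with at least 2 were below 0. The median log2 fold change was 0.02 for 11975 genes without a match, −0.08 for 1230 genes with 1 match and −0.16 for 170 genes with at least 2. The difference between the last and the first of these medians was −0.178. It was −0.289 without E12.5 replicate 2, the most negative of the fits without 1 library. Such fits also reached a smaller difference than −0.178, and their range is given at the end. With 8-base matches (CTACCTCA), at least 2 of which were held by only 24 genes, the difference was −0.386. In E11.5 vs. E10.5 the medians were −0.02, −0.01 and −0.03, a difference of −0.0134 that reversed to 0.0487 with 6-base matches (TACCTC). Over the whole span the medians were 0.00, −0.09 and −0.18, a difference of −0.179. It was −0.279 without E12.5 replicate 2, again the most negative of the fits without 1 library. With 6-base matches the whole-span medians were 0.012 without a match and −0.087 with at least 2. The miR-125 match gave medians of 0.02, −0.06 and −0.11 for 0, 1 and at least 2 matches in the second interval, so these letters showed a gradation as well. Of the genes with at least 2 miR-125 matches, 62.4% were below 0 in that interval, and of those without one, 47.8%. Genes with more matches have longer 3′ UTRs, with a median of 1094 bases for genes without a match and 3648.5 bases for those with at least 2. Among 3′ UTRs of at least 2000 bases, chosen after seeing the data, the second-interval medians were −0.09 without a match and −0.19 with at least 2. The part of 3′ UTR length in these values was not tested further.

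**Figure D5:**
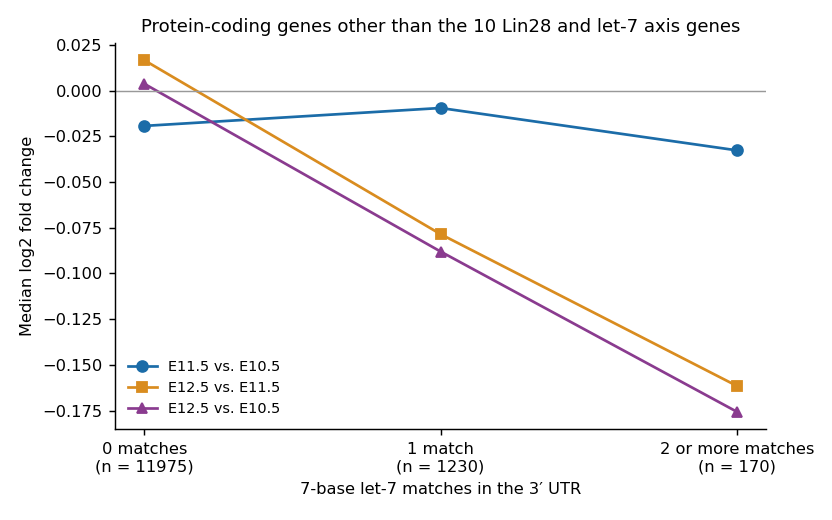
Median log2 fold change (vertical axis) of protein-coding genes other than the 10, by the number of 7-base let-7 matches in the 3′ UTR, with 1 line per comparison and the number of genes under each group. The E12.5 vs. E11.5 line runs from 0.02 to −0.16, and the E11.5 vs. E10.5 line lies between −0.03 and −0.01.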

How the data were processed

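RNA was extracted with Trizol from lambdoidal junction tissue, libraries were made with the Illumina TruSeq RNA kit, and the authors aligned reads to mm10 with HISAT2 (2.0.5), with gene counts from featureCounts. The deposited raw counts per gene were the input of all tests, and the deposited FPKM, which the authors computed from counts and gene length, served only to compare levels between genes. Deposited log2 fold changes and p-values of the authors' own comparisons were not used. Whether counting used strand, and how multi-mapped reads were treated, is not given in the sources used here. Totals were 16581009–20836804 counts per library, and 98.3% of the gene IDs had the coordinates of GENCODE vM21, which served for exons and 3′ UTRs (GRCm38).

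Each pair of stages was fitted with edgeR (4.0.16, R 4.3.3) on its 6 libraries, with filterByExpr, TMM and the quasi-likelihood test, and p-values were adjusted by Benjamini-Hochberg over all genes tested. DEG thresholds were 0.05 for the adjusted p and 1 for the size of the log2 fold change. The fits were also run on simulated data with an equal spread for all genes and no outlying library. That run therefore does not cover the spread between the libraries used here. DESeq2 (1.42.0) and other settings were alternatives. Nothing states that libraries with the same number share a litter or a day, so p-values measure the spread between pools. The genes and lists were chosen with earlier results of these data known. Named were the 10 genes, every list gene called in at least 1 comparison, the 2 most highly expressed uncalled genes of each list, every tested spanning transcript and the 8 genes nearest in pattern. A gene that this rule names is not reported here.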

Additional observations from a re-analysis of the deposited data

How the results depend on the processing

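Of 390 log2 fold changes of the 10 genes under the alternatives, 388 had the sign given in the report, and the other 2 were both of Hmga2 in E11.5 vs. E10.5 (main value 0.03). The number of the 10 genes past the thresholds was 6 in the first interval, 7 in the second and 8 over the whole span, and without 1 library it was 6–6, 6–8 and 8–8. With an adjusted p alone, DEGs were 972 up and 877 down in E11.5 vs. E10.5 (against 544 and 410), 1203 up and 723 down in E12.5 vs. E11.5 (against 654 and 152), and 1675 down in E12.5 vs. E10.5 (against 807), and genes of the related lists were 14, 21 and 24 (against 6, 4 and 14). With all genes of at least 1 count, 252 genes were down in E12.5 vs. E11.5. In E11.5 vs. E10.5, 1 spanning transcript was called with DESeq2, 1 with the GC trend removed and 1 with an adjusted p alone (against 0), and in E12.5 vs. E11.5 with the GC trend removed it was 1 (against 2).

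The median log2 fold change of genes with at least 2 let-7 matches minus that of genes with none was −0.0134 in E11.5 vs. E10.5. It was −0.0332 with the GC trend removed, −0.103 with 8-base matches (CTACCTCA), −0.0960 for 3′ UTRs of at least 2000 bases, and it reversed to 0.0487 with 6-base matches (TACCTC). In E12.5 vs. E11.5 it was −0.178, −0.386 with 8-base matches and −0.108 for the longer 3′ UTRs. In E12.5 vs. E10.5 it was −0.179, −0.0990 with 6-base and −0.390 with 8-base matches. A match was held by 3.70% of 3′ UTRs for 8 bases and 26.8% for 6 bases. The differences with 8-base matches rested on 24 genes with at least 2 of them. The cause of these differences was not tested.

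With the replicate number as a block, DEGs were 505 up and 370 down, 687 up and 200 down, and 1613 up and 861 down in the same order of comparisons, the median difference in E11.5 vs. E10.5 was −0.0224, and the counts for the 10 genes, the lists and the spanning transcripts were equal to those without it. Same-numbered libraries did not deviate together in every pair (correlations −0.151 to 0.220), so the replicate numbers were not taken as pairs.

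Without 1 library, DEGs ranged over 234–772 up and 161–820 down in E11.5 vs. E10.5 (lowest without E11.5 replicate 1, highest without E10.5 replicate 3), 409–789 up and 85–392 down in E12.5 vs. E11.5, and 1274–1710 up and 583–1028 down in E12.5 vs. E10.5. List genes ranged over 3–6, 3–6 and 13–14, spanning transcripts over 0–1, 0–2 and 2–5, and the median difference from −0.0225 to −0.00943, from −0.289 to −0.124 and from −0.279 to −0.139. Among the 10 genes, Lin28a at E12.5 rested on the fewest counts, 5–16 per library.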
